A study of Mus musculus with 2 samples.

Results

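The autophagy genes described here were 40 genes of the mouse, among 55536 GENCODE genes measured by sequencing of polyadenylated RNA in inflammation-experienced regulatory T cells. They were chosen by symbol from the GENCODE M21 annotation, and all 40 symbols were found. Per the labels, the cells were primary cells, male, aged 7 weeks, and came from activated regulatory T cells. The labels name no genotype, allele, agent or time for this biosample, and no other condition. They give 1 biological replicate and 2 technical replicates, called library 1 and library 2 here, so the only comparison was library 2 against library 1. A difference between them, and any p-value, therefore measures 2 libraries of 1 biosample and not mice or conditions.

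Autophagy is the process by which a cell encloses part of its cytoplasm in a double membrane, the autophagosome, and delivers it to the lysosome for breakdown. A kinase complex around ULK1 starts the process, a lipid kinase complex around VPS34 marks the site of membrane growth, and 2 ubiquitin-like conjugation systems attach ATG8 proteins to the growing membrane, where cargo receptors bind them. In mouse regulatory T cells, loss of the conjugation genes Atg5 or Atg7 is known to reduce the survival and stability of the cells.

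The expected counts over GENCODE genes came to 26593267 for library 1 and 22036331 for library 2. Levels are given as TPM, a value per length that is scaled to the same total in each library. The T cell markers were high in both libraries, with a summed TPM of 7538 in library 1 and 7458 in library 2 over 6 genes. Foxp3, the transcription factor that defines regulatory T cells, stood at 87.3 TPM in library 1 and 87.4 TPM in library 2. By counts, which the test described below used, it was 1.06-fold higher in library 1. Of the other 4 regulatory T cell markers, Ctla4 (84.1 and 66.6 TPM) and Ikzf2 (214 and 185 TPM) were also higher in library 1, Tnfrsf18 (344 and 369 TPM) was higher in library 2, and Il2ra was not called. Markers of other cells differed between the libraries. All 6 erythroid markers reported were higher in library 1, with a summed TPM of 8494 against 94.8. Of 9 macrophage or monocyte markers tested, 8 were higher in library 2 and Lyz2 was higher in library 1. The summed TPM of all 10 was 41.9 in library 1 and 122 in library 2, and C1qc and Marco were at 0 in library 1. All 5 B cell markers were higher in library 1, at a summed TPM of 601 against 546, but Ighm, which made up 447 and 436 of these sums, was higher in library 2 in the small gene table. The T cell markers Cd3e and Trac turned in the same way. Of 3 NK cell markers tested, 2 were higher in library 2, and over all 4 the summed TPM was 190 and 309, with Ncr1 at 0 in library 1. Of 5 markers of stroma or epithelium, library 2 had the higher value for 3 and library 1 for 2, with summed TPM values of 93.2 and 86.3, with Col3a1 at 0 in library 1. Of 6 cell cycle genes, 4 were higher in library 1, Ccnb1 by 25.2-fold, Birc5 by 5.36-fold, Mki67 by 4.33-fold and Mcm2 by 1.23-fold. Top2a was 1.19-fold higher in library 2 but not called in the small gene table, and Pcna was not called. The part of these cells in the differences given below was not tested, and in bulk RNA fewer cells of a type and less RNA per cell cannot be told apart.

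Nearly the whole autophagy machinery was transcribed. A gene was taken as detected where its TPM reached 1 in each library. By this rule 38 of the 40 genes were detected, and the exceptions were Wipi1 and Atg4c. The median TPM of the 40 genes was 39.7, against 21.3 for the 13718 genes detected in all. The median detected member stood at percentile 67.1 of the detected genes. Together the 40 genes took 0.281% of all TPM in library 1 and 0.277% in library 2. The 6 highest members over all transcripts, Gabarap, Sqstm1, Gabarapl2, Map1lc3b, Becn1 and Tax1bp1, held 53.9% and 52.2% of that sum. Of the 40, 15 had a mean TPM of at least 50 and 7 had one of at least 100. In the order of levels, the values of the libraries overlapped for 30 of the 39 neighbouring pairs. The ranges did not overlap at 9 steps of the order, those just below Sqstm1, Gabarapl2, Tax1bp1, Rb1cc1, Pik3c3, Ulk1, Atg9a, Gabarapl1 and Optn.

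**Figure D1:**
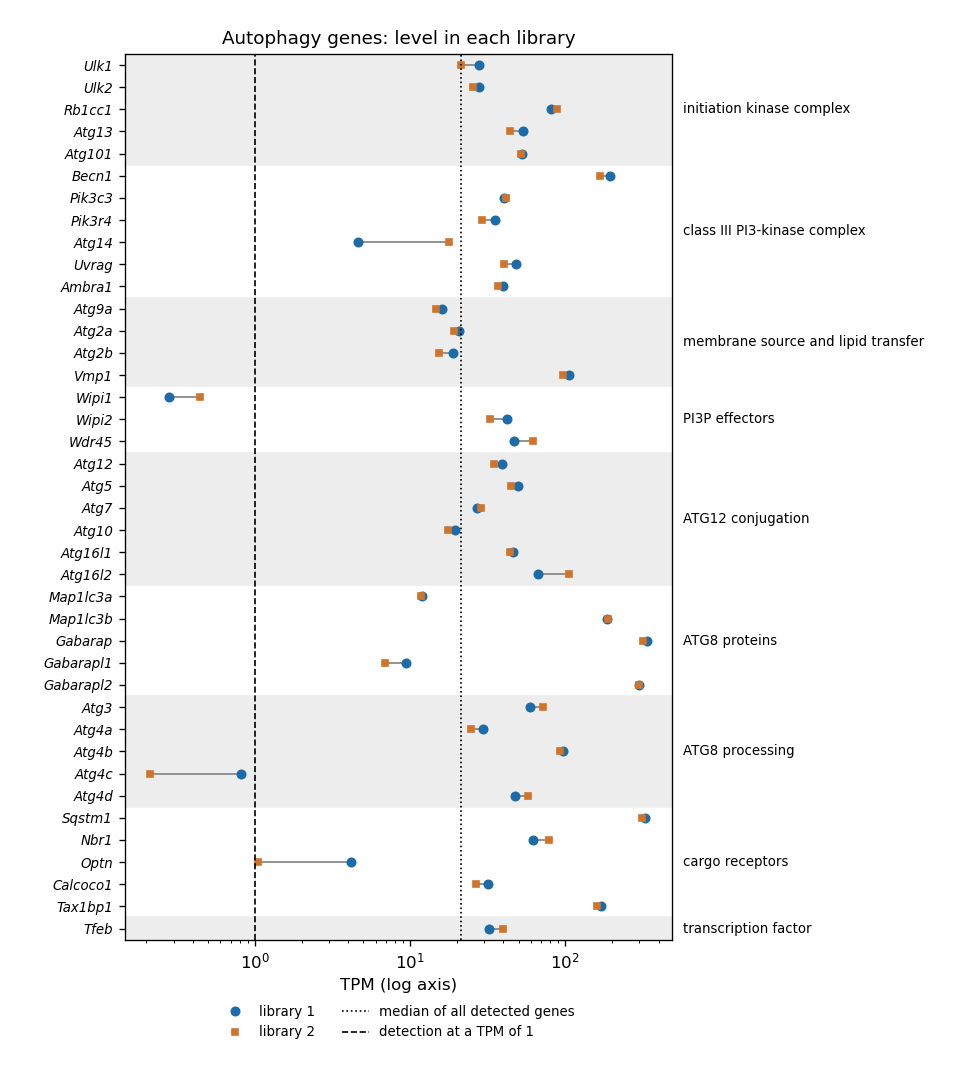
TPM of each of the 40 autophagy genes in library 1 (circles) and library 2 (squares) on a log axis, grouped by role, with lines between the values of the libraries. The dotted line is the median of all detected genes, 21.3, and the dashed line is the detection threshold of 1. Wipi1 and Atg4c lie to the left of the dashed line in both libraries, and Atg14 and Optn have the widest gaps among the detected genes.

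For each gene, the libraries were compared by an exact binomial test, 2-sided, on rounded expected counts against the library totals, with Benjamini-Hochberg adjustment over all genes tested. A gene was called at an adjusted p under 0.05. This test covers counting error only, and it called 70.3% of the 24253 genes tested. Of the 40 autophagy genes, all of which were tested, 27 were called, a share of 67.5%. Of these, 7 were higher in library 2, a direction taken by 46.4% of all genes tested, and 20 were higher in library 1, a direction taken by 23.9%. With DESeq2 size factors in place of library totals, which moved log2 ratios by -0.14, the numbers were 5 and 28, against 39% and 32.1% of all genes tested under the same factors. At least 100 counts over both libraries were held by 12609 of all genes tested and by 38 of the 40 autophagy genes. Directions were not compared among genes of like counts. The median log2 ratio of library 2 over library 1 was -0.09 for the autophagy genes and 0.01 for all detected genes. With DESeq2 size factors the medians were -0.24 and -0.14.

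Most of the called differences were small. The median size of the log2 ratio, regardless of sign, was 0.22 for the autophagy genes and 0.29 for all detected genes. A difference that was called and at least 2-fold was found for 3 autophagy genes, Atg14, Optn and Atg4c, whereas 39.3% of all genes tested had one. Among genes with at least 100 counts over both libraries, 2 of 38 autophagy genes had such a difference, against 14.1% of all genes. The small gene table, a separate set of whole counts made with GENCODE M4, called 54.3% of its 14432 genes tested and 20 of 39 autophagy genes. Both tables called 19 autophagy genes with the same sign and none with opposite signs. Becn1, Vmp1, Wdr45, Gabarap, Atg4a, Atg4c, Sqstm1 and Tfeb were called from the large table alone, and Uvrag from the small table alone.

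**Figure D2:**
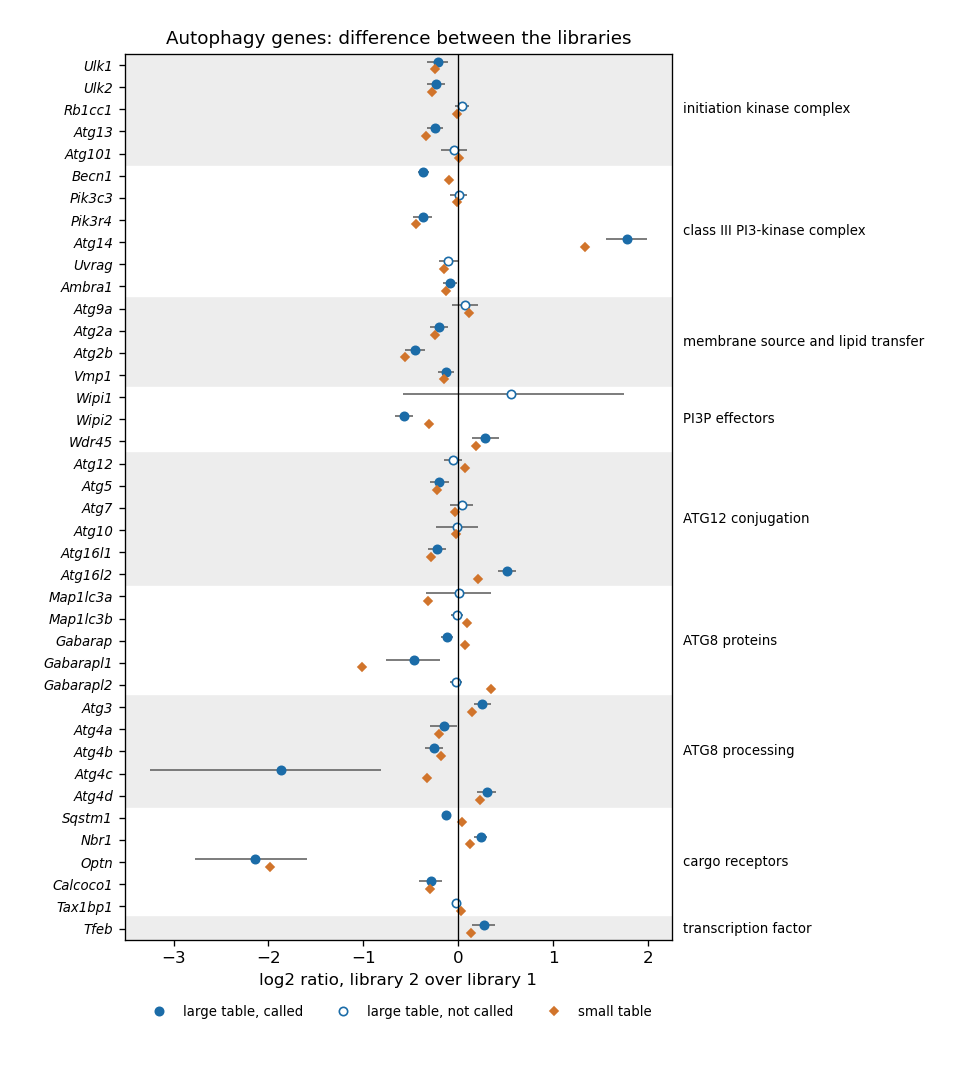
Log2 ratio of library 2 over library 1 for each of the 40 autophagy genes, from the large table (circles, filled where called, with 95% exact intervals for counting error) and from the small table (diamonds, for 39 genes). Most ratios lie between -0.6 and 0.6, while Atg14 lies to the right at 1.77 and Optn and Atg4c to the left at -2.15 and -1.87.

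The initiation complex holds the kinases ULK1 and ULK2, the scaffold RB1CC1 (FIP200), and the subunits ATG13 and ATG101. Rb1cc1 was the highest of the 5 genes, with 80.7 TPM in library 1 and 88.4 TPM in library 2. The kinases stood lower, Ulk1 at 27.9 and 21.3 and Ulk2 at 27.9 and 25.6. Over all transcripts neither paralogue thus led in library 1, and Ulk2 held 54.7% of their sum in library 2. In protein-coding transcripts alone Ulk2 was the higher in both libraries, at 25.1 and 21.4 against 18.55 and 16.6 for Ulk1. Ulk2 also had more counts, 2402 and 1693 against 1665 and 1187. Atg13 stood at 53.8 and 44.0, and Atg101 at 52.7 and 51.6. Ulk1, Ulk2 and Atg13 were higher in library 1, by 1.16-fold, 1.18-fold and 1.19-fold in counts, and Rb1cc1 and Atg101 were not called. For Ulk1 the exact binomial test gave an adjusted p of 0.000156, and the small table gave ratios on the same side for all 3.

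The class III phosphatidylinositol 3-kinase complex produces the lipid PI3P and consists of the catalytic subunit VPS34 (Pik3c3), its regulatory subunit VPS15 (Pik3r4) and BECN1, with either ATG14 or UVRAG. AMBRA1 is a regulator that binds BECN1. Becn1 was the highest over all transcripts, with 195 TPM in library 1 and 168 TPM in library 2. Pik3c3 stood at 40.6 and 41.8, and Pik3r4 at 35.2 and 29.2. Uvrag stood at 48.4 and 40.5, and Ambra1 at 39.8 and 36.7. Over protein-coding transcripts alone Becn1 did not lead. It stood at 26.75 and 19.04, below Pik3c3 at 39.36 and 30.59 and Ambra1 at 35.18 and 36.01. On that scale Pik3r4 stood at 25.35 and 18.12, and Uvrag at 6 and 8.79. By counts over all transcripts Becn1, Pik3r4 and Ambra1 were higher in library 1, with log2 ratios of -0.37, -0.37 and -0.09. Pik3c3 and Uvrag were not called. The difference of Becn1 was smaller in the small table, at a log2 ratio of -0.10, and was not called there.

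Atg14, which directs the complex to sites of autophagosome formation, stood apart from its partners. It had 243 expected counts in library 1 and 689 in library 2, at a TPM of 4.64 and 17.9. Over all transcripts its level thus lay below that of Uvrag in both libraries. Over protein-coding transcripts alone, Atg14 lay below Uvrag in library 1 but above it in library 2. There Atg14 stood at 14.4 TPM and Uvrag at 8.79 TPM, from 668 and 609 counts in coding transcripts. By counts over all transcripts Atg14 was 3.42-fold higher in library 2, with a log2 ratio of 1.77 and a 95% exact interval of 1.56 to 1.99. In the exact binomial test the adjusted p was 3.61e-68. The small table held 114 and 255 counts, a 2.53-fold difference in the same direction, with an adjusted p of 1.99e-16 in the same exact test. The antisense gene Gm49004, which shares 239 exonic bases with Atg14, had 1.31 and 0 counts.

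Membrane supply involves the lipid scramblases ATG9A and VMP1 and the lipid transfer proteins ATG2A and ATG2B. Vmp1 was far above the other 3 over all transcripts, with 105 TPM in library 1 and 96.0 TPM in library 2. Processed transcripts made up 61.5% and 60.5% of this. In protein-coding transcripts alone Vmp1 still led, at 40.4 and 38.0, with Atg2a next at 20.5 and 17.75. By counts Vmp1 had 2587 and 1963, and Atg2a had 2136 and 1538. Atg9a stood at 16.0 and 14.8, Atg2a at 20.8 and 19.2, and Atg2b at 19.0 and 15.4. The lipid transfer paralogues were close in level, Atg2a holding 52.3% of their sum in library 1 and 55.5% in library 2. Atg2a, Atg2b and Vmp1 were higher in library 1, by 1.15-fold, 1.37-fold and 1.09-fold, and Atg9a was not called. The difference of Atg2b had a log2 ratio of -0.45 in the large table and -0.56 in the small table.

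The WIPI proteins bind PI3P, and among them WIPI2 recruits the conjugation machinery to the membrane. Wipi2 had 42.1 TPM in library 1 and 32.7 TPM in library 2. Wdr45, which encodes WIPI4, had 46.9 and 61.9. Wipi1, in contrast, was near the limit of detection, at a TPM of 0.28 and 0.44 from 13 and 16 counts. Wipi2 was 1.49-fold higher in library 1 and Wdr45 was 1.22-fold higher in library 2, so their order by TPM was the same but their gap differed between libraries. Over protein-coding transcripts alone Wipi2 stood at 31.9 and 25.3 and Wdr45 at 26.4 and 40.65, so Wipi2 was the higher in library 1. The call for Wdr45 was lost in the small table and with DESeq2 size factors. The few counts of Wipi1 gave no call, with a log2 ratio of 0.56 and a 95% exact interval of -0.58 to 1.75.

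In the ATG12 system, the E1-like enzyme ATG7 and the E2-like enzyme ATG10 join ATG12 to ATG5, and the pair binds ATG16L1. Atg5 stood at 49.8 TPM in library 1 and 44.6 TPM in library 2, Atg12 at 39.3 and 34.6, and Atg16l1 at 46.2 and 44.1. The enzymes were lower, Atg7 at 27.1 and 28.7 and Atg10 at 19.4 and 17.5. The highest gene of the group was Atg16l2, a paralogue of Atg16l1, at 66.7 and 106. It held 59.1% of the sum of the paralogues in library 1 and 70.7% in library 2. These values include retained-intron transcripts, which made up 47.7% and 61.6% of Atg16l2 TPM. Over protein-coding transcripts alone Atg16l2 stood at 21.9 and 25.8, below Atg16l1 at 33.6 and 26.4, and in library 1 Atg16l1 also had more counts, 2168 against 1755. Atg5 and Atg16l1 were higher in library 1, by 1.15-fold and 1.16-fold. Atg16l2 was 1.43-fold higher in library 2 (adjusted p = 5.45e-27, exact binomial test) and 1.16-fold higher in the small table. Atg12, Atg7 and Atg10 were not called, with log2 ratios of -0.06, 0.04 and -0.01.

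The ATG8 proteins are the ubiquitin-like proteins that are coupled to lipid on the autophagosome. Their summed TPM was 845 in library 1 and 825 in library 2, the largest sum among the 9 role groups. Gabarap stood at 337 and 319, Gabarapl2 at 301 and 298, and Map1lc3b, the gene of the widely used marker LC3B, at 186 and 189. Map1lc3a, at 11.9 and 11.8, and Gabarapl1, at 9.36 and 6.91, were more than 10-fold lower than these 3 in TPM over all transcripts. Shares of the family were therefore alike in the libraries, at 39.9% and 38.7% for Gabarap, 35.6% and 36.1% for Gabarapl2, and 22.0% and 22.9% for Map1lc3b. Map1lc3a held 1.41% and 1.43%, and Gabarapl1 held 1.11% and 0.838%. The sums and shares include transcripts that are not protein-coding. Over protein-coding transcripts alone Gabarap stood at 228 and 209, Map1lc3b at 181 and 187, and Gabarapl2 lower at 59.8 and 60.7. On that scale Gabarapl1 stood at 9.36 and 6.92, less than 10-fold below Gabarapl2, and Map1lc3a at 1.81 and 2.80. Gabarap and Gabarapl1 were higher in library 1, by 1.08-fold and 1.39-fold. The direction of Gabarap was opposite in the small table, at a log2 ratio of 0.08 that was not called, whereas that of Gabarapl1 was larger there, at -1.01 from 76 and 33 counts. Map1lc3a, Map1lc3b and Gabarapl2 were not called, and their log2 ratios lay between -0.02 and 0.01.

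ATG4 proteases cut the ATG8 precursors and release them from lipid, and ATG3 is the E2-like enzyme that couples them to it. Atg4b was the highest protease gene over all transcripts, with 96.2 TPM in library 1 and 92.2 TPM in library 2. Atg4d stood at 47.3 and 57.7 and Atg4a at 29.6 and 24.7. Over protein-coding transcripts alone Atg4b stood at 26.6 and 18.0, Atg4a at 23.9 and 22.5, and Atg4d at 5.55 and 7.32. Atg4a thus led in library 2 on that scale, although Atg4b had more counts in coding transcripts there, 775 against 658. Atg4c was at a TPM of 0.81 and 0.21, from 37 and 8 counts, and held 0.466% and 0.120% of the family. All 5 genes of this group were called, Atg3 and Atg4d higher in library 2 by 1.19-fold and 1.23-fold, and Atg4a, Atg4b and Atg4c higher in library 1 by 1.11-fold, 1.19-fold and 3.66-fold. The difference of Atg4c rests on few counts. The small table gave it 23 and 16 counts, a log2 ratio of -0.33 that was not called. Atg3 itself stood at a TPM of 59.5 and 72.0.

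**Figure D3:**
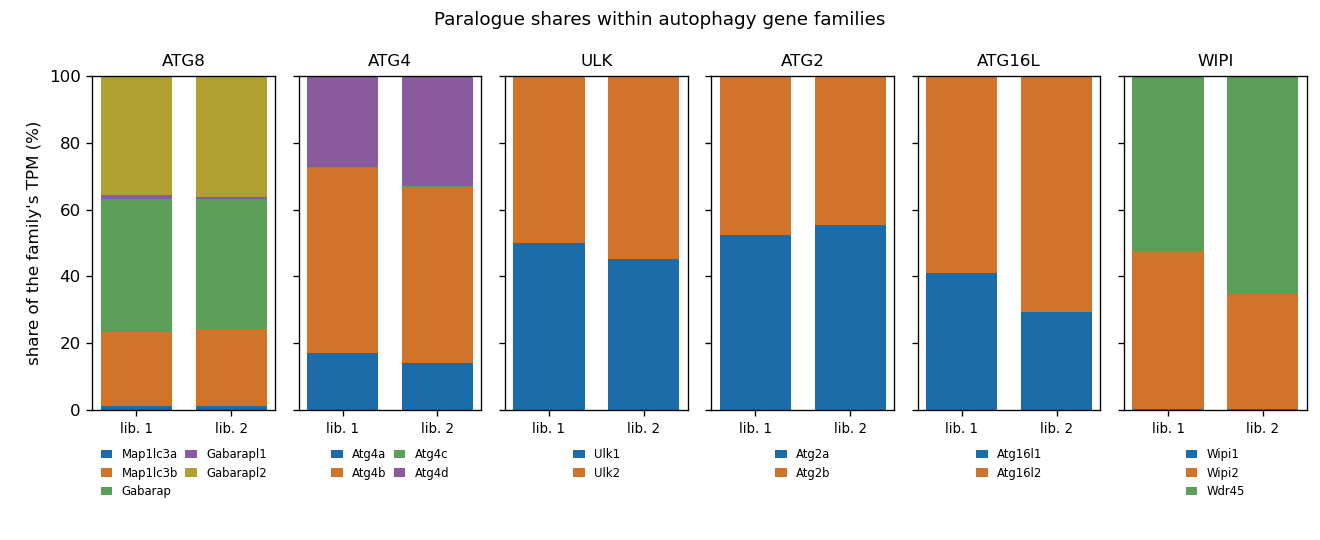
Share of each paralogue in the summed TPM of its family, in percent, for 6 families, with 1 stacked bar per library. TPM covers all transcripts of a gene, protein-coding or not. The ATG8 bars are nearly equal, with Gabarap, Gabarapl2 and Map1lc3b filling almost all of them, while the share of Atg16l2 is 59.1% in library 1 and 70.7% in library 2 and that of Wdr45 is 52.5% and 65.1%.

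Cargo receptors bind both ubiquitin or other cargo tags and ATG8 proteins. Sqstm1, which encodes p62, stood at 325 TPM in library 1 and 311 TPM in library 2, close to Gabarap over all transcripts. In protein-coding transcripts alone Sqstm1 was the higher, at 310 and 295 against 228 and 209 for Gabarap. Tax1bp1 stood at 171 and 160, Nbr1 at 61.7 and 78.7, and Calcoco1 at 31.8 and 26.4. Sqstm1 and Calcoco1 were higher in library 1, by 1.09-fold and 1.22-fold, Nbr1 was 1.18-fold higher in library 2, and Tax1bp1 was not called. For Sqstm1 the small table gave the opposite direction, at a log2 ratio of 0.04 that was not called.

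Optn, which encodes the receptor optineurin, was by far the lowest cargo receptor. It had 162 counts in library 1 and 29.9 in library 2, at a TPM of 4.15 and 1.05. The ratio was 4.42-fold higher in library 1, with a log2 ratio of -2.15 and a 95% exact interval of -2.78 to -1.59. The adjusted p was 3.19e-17 in the exact binomial test. The small table held 136 and 30 counts, with a log2 ratio of -1.98. Optn shares 73 exonic bases with the antisense gene 4930551O13Rik, which had 0 counts in library 1 and 47.1 in library 2, and whether reads were assigned by strand is not given in the sources used here. Optn and Atg14 thus differed in opposite directions, as the summed markers of erythroid cells and of macrophages or monocytes also did, and whether these are related was not tested.

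Tfeb encodes a transcription factor that binds lysosomal and autophagy genes at motifs built on the letters CACGTG. It stood at 32.1 TPM in library 1 and 39.6 TPM in library 2, and was 1.20-fold higher in library 2. That call was lost in the small table, at a log2 ratio of 0.14, and with DESeq2 size factors, at 0.12. RefSeq promoters, from 250 bases before to 50 bases after each start, were at hand for 34 of the 40 members, in 42 windows. The letters CACGTG, searched on both strands, were in 4 of the 42 windows, those of Atg14, Atg3, Atg5 and Atg7, and in 7.15% of all 32851 promoters of this length. The longer GTCACGTG, which contains CACGTG, was in 3 of the 42 windows, those of Atg14, Atg3 and Atg7, and in 2.25% of all promoters. TGTTTAC, a motif of FOXO factors, was in none of the members' windows and in 3.65% of all. A match is a description of letters and not evidence of binding. The 4 windows with a match are shown because they let these members' values be read beside the motif of a factor that is itself a member. They run 5′ to 3′ on the strand of the gene in GRCm38.p6, with CACGTG in capitals and 30 bases on each side.
Atg7: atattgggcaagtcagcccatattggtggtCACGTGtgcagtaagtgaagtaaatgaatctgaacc
Atg5: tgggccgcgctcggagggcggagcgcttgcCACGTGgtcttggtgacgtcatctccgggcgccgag
Atg14: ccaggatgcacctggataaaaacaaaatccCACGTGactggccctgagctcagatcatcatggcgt
Atg3: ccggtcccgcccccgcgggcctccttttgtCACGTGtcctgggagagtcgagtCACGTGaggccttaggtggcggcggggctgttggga

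The window of Atg7 lies on the plus strand at chr6:114670934-114670999, that of Atg5 on the plus strand at chr10:44268295-44268360, that of Atg14 on the minus strand at chr14:47568400-47568465, and that of Atg3 on the plus strand at chr16:45158705-45158793. The letters begin at -132 from the start in Atg7, at -14 in Atg5, at -1 in Atg14, and at -94 and -71 in Atg3, the only one of the 4 with 2 matches. These RefSeq starts lie 27999 bases downstream of the GENCODE gene start for Atg7 and 2215 bases downstream for Atg14, so both are starts within the gene, and they lie within 44 bases of it for Atg5 and Atg3. These 4 genes did not move together between the libraries, since Atg14 and Atg3 were higher in library 2, Atg5 was higher in library 1, and Atg7 was not called.

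A further 64 genes of the pathway were in 4 lists that extend it to organelle receptors, autophagosome fusion, core regulators and nutrient sensing. Of these, 60 were detected. In the exact binomial test 29 had the higher share of counts in library 2 and 23 in library 1, while 12 were not called, with a median log2 ratio of 0.03. Over all genes tested these directions were taken by 46.4% and 23.9%, and 70.3% were called. With DESeq2 size factors the numbers were 19 and 31, against 39% and 32.1% of all genes. Of 15 organelle receptor genes, 7 had more counts for the library size in library 2 and 5 in library 1, while 3 were not called. The receptors of mitochondrial autophagy Bnip3l, Fkbp8 and Phb2 led this list at a mean TPM of 332, 327 and 176, and Wdfy3, an adaptor of aggregate clearance, had 1 count in library 1 and 63 in library 2. Of 15 fusion genes, 5 had more counts for the library size in library 2 and 6 in library 1, while 4 were not called. The late endosomal GTPase gene Rab7 led that list at 243, followed by the tethering subunit Vps16 at 224 and the SNARE gene Vamp8 at 181.

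Of 14 core regulators and relatives, 8 called genes were higher in library 2 and 4 called genes in library 1, while 2 were not called. Bcl2, which encodes a binding partner of BECN1, led at a mean TPM of 148, Irgm1, an interferon-inducible GTPase gene, followed at 111, and Snx4, a sorting nexin gene, at 86.1. Mitf, a relative of Tfeb, had 20 counts in library 1 and 81 in library 2, at a TPM of 0.25 and 1.25 and a log2 ratio of 2.26. Of 20 genes of nutrient and energy sensing, 9 called genes were higher in library 2 and 8 called genes in library 1, while 3 were not called. Rheb, the activator of the kinase mTOR, led at 129, followed by Prkag1 and Prkab1, which encode subunits of the energy sensor AMPK, at 115 and 90.7. Sesn2, which encodes a leucine sensor, had 29 counts in library 1 and 365 in library 2, at a TPM of 0.51 and 7.85, with a log2 ratio of 3.90 in the large table and 3.56 in the small table. Prkaa2, an AMPK catalytic subunit gene, had 0 and 22 counts. Each of the low genes Wdfy3, Mitf, Sesn2 and Prkaa2 was higher in library 2, the library in which the macrophage or monocyte markers were also higher, and whether these are related was not tested.

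The transcript tables split each gene's TPM over its annotated transcripts. The leading transcript, the one with the highest mean TPM, was annotated as protein-coding for 34 of the 40 members. Among detected members the share was 84.2%, or 32 of 38, against 85.7% of the 10818 detected protein-coding genes. The same transcript led in both libraries for 32 of the 40. The leading transcript held under 50% of the gene's TPM in at least 1 library for 18 members, and its median share over all members was 59.4%. Over detected members the median share of TPM in protein-coding transcripts was 82.0% in library 1 and 78.1% in library 2, against 87.3% and 84.9% for all detected protein-coding genes. By expected counts, which are not divided by length, the members' medians were 92.9% and 90.7%, and 36 of the 40 leading transcripts were protein-coding.

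The leading transcript was not protein-coding for Becn1, Uvrag, Map1lc3a, Gabarapl2, Atg4b and Atg4d. Becn1-201, annotated as a target of nonsense-mediated decay with 315 coding bases, held 49.7% of Becn1 TPM in library 1 and 48.0% in library 2, and it led by counts too, with 54.4% and 57.8%. All protein-coding Becn1 transcripts together held 13.7% and 11.3%. Gabarapl2-203, a retained-intron transcript of 749 bases, held 79.9% and 79.6%, while the coding Gabarapl2-201, of 1677 bases, held 19.9% and 20.4% of TPM and 36.6% and 37.3% of counts. These shares did not differ much between the libraries.

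Atg4d-203, a retained-intron transcript, held 39.95% of Atg4d TPM in library 1 and 38.7% in library 2, and protein-coding transcripts of the gene held 11.7% and 12.7%. Uvrag-202, also a retained-intron transcript, held 48.0% and 45.6%, although the coding Uvrag-201 led by counts over both libraries with 27.3% and 42.4%. Atg4b-204, a target of nonsense-mediated decay, held 27.0% and 21.7%, but the coding Atg4b-201 led by counts with 55.3% and 45.1%. Map1lc3a-203, a processed transcript without a coding frame, held 47.5% and 36.4%, and it gave way to the processed transcript Map1lc3a-202 in library 2, at 39.8%. Short transcripts gain in TPM relative to counts because TPM is divided by length, so the order of transcripts within these genes depends on the scale.

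**Figure D4:**
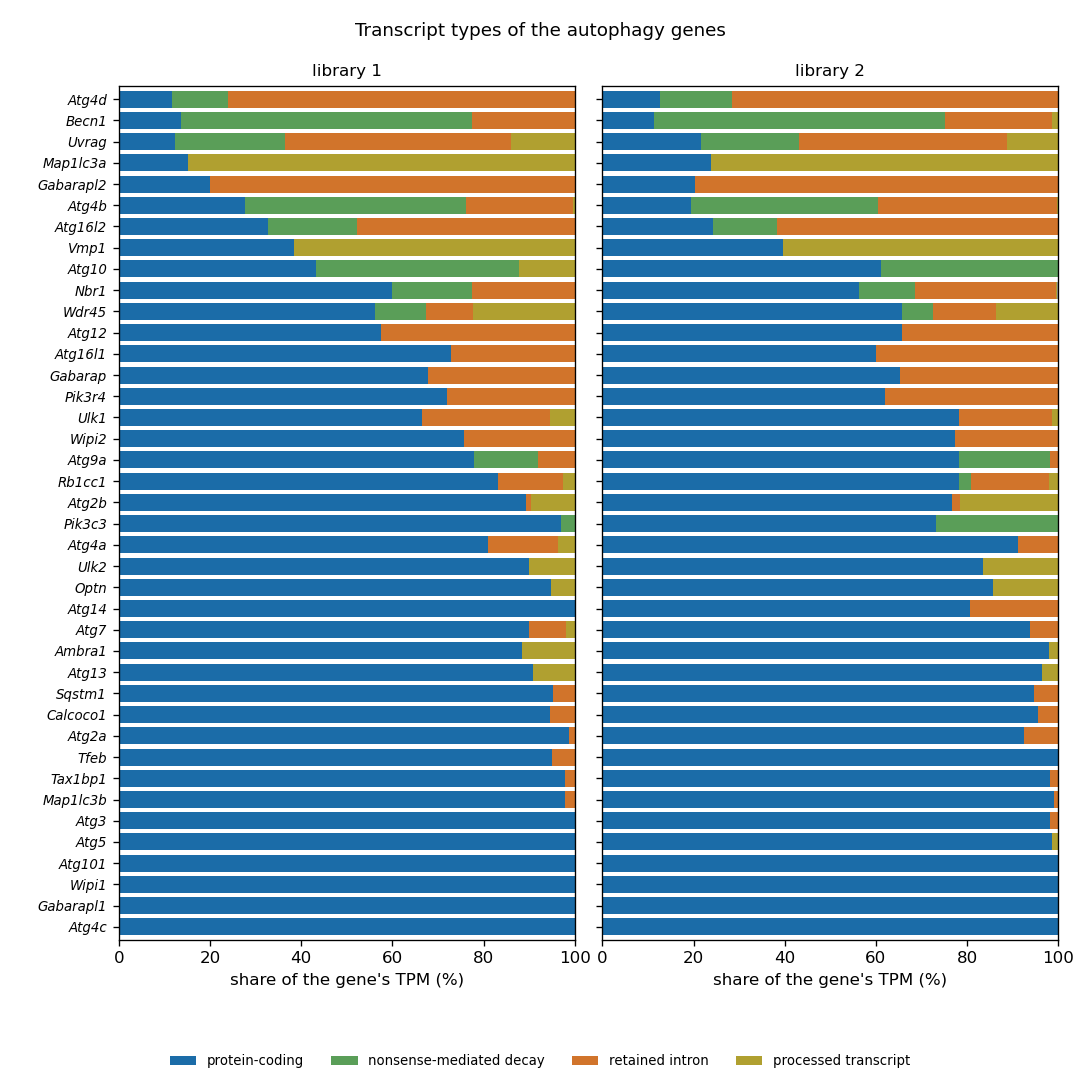
Share of each gene's TPM, in percent, in transcripts of each GENCODE type, for the 40 autophagy genes in library 1 (left) and library 2 (right), ordered by the share in protein-coding transcripts. Atg4d, Becn1, Uvrag, Map1lc3a and Gabarapl2 are at the top with protein-coding shares below 25% in both libraries, and most genes in the lower part are above 80%.

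The leading transcript changed between the libraries for 8 members. Atg9a-201 held 53.5% of Atg9a TPM in library 1 and 4.94% in library 2, where Atg9a-208 led with 34.1%, and both have the same number of coding bases, 2517. Wdr45-201 held 42.4% and 13.5%, and Wdr45-204, which was at 0 in library 1, led library 2 with 22.8%. Atg7-210 held 59.3% and 26.7%, and Atg7-201 led library 2 with 37.9%, again with the same 2094 coding bases. In these 3 genes the change was thus between transcripts of equal coding length, and the level of Atg7 and Atg9a themselves was not called different.

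For Atg10 the change crossed types, from the nonsense-mediated decay target Atg10-203, at 44.6% in library 1, to the coding Atg10-201, at 61.0% in library 2, but by expected counts Atg10-201 led in both libraries with 57.8% and 73.3%. Wipi2-201 held 47.8% and 34.9%, and Wipi2-202 held 27.9% and 42.3%, while by counts Wipi2-201 led in both with 68.9% and 57.4%. Atg16l2-202 led library 1 with 27.3% and the retained-intron transcript Atg16l2-212, of 584 bases, led library 2 with 18.3%. By counts Atg16l2-212 held 6.78% in library 2, where the coding Atg16l2-201 led with 33.6%. Nbr1-206 held 23.2% and 24.0% and Nbr1-204 held 22.0% and 26.1%, so these shares lay close together. Map1lc3a is described above. The other members under 50% with an unchanged leader were Rb1cc1 (Rb1cc1-216, at 37.5% and 36.4%), Pik3r4 (Pik3r4-201, at 42.7% and 43.9%), Ambra1 (Ambra1-203, at 39.8% and 53.9%), Vmp1 (Vmp1-201, at 38.5% and 39.5%), Atg16l1 (Atg16l1-202, at 39.8% and 33.2%) and Map1lc3b (Map1lc3b-201, at 40.7% and 38.6%). Transcript values carry an assignment error that the deposited point values do not show, and with 1 biosample these changes had no test.

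The small gene table placed the ATG8 genes very differently from the large one. Over 10316 protein-coding genes with at least 100 expected counts, small-table counts were a median of 46.3% of the expected counts, with quartiles of 29.3% and 62.6%. For 38 autophagy genes the median was 53.8%. Gabarapl2 stood at 0.849%, with 32 and 36 counts in the small table against 4414 and 3596 expected counts, and 1.60% of all compared genes were as low. Map1lc3b stood at 2.15%, from 97 and 91 counts, where 2.56% of all genes were as low. Atg12 at 10.6%, Atg4a at 13.4%, Gabarap at 17.4%, then Gabarapl1, and Sqstm1 at 26.6% followed. The highest members were Optn at 86.5%, Atg2a at 83.1% and Atg2b at 77.1%. The ATG8 genes thus lay at the low end, except Map1lc3a at 65.4%.

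Across all compared genes this percentage was related to the share of coding bases in the leading coding transcript, with a Spearman coefficient of 0.594 and a Pearson coefficient of 0.517. Genes are not independent replicates and share both libraries, so this is a description. In Map1lc3b coding bases were 14.8% of that transcript, in Gabarapl2 20.9% and in Atg12 8.88%, whereas in Atg2a they were 90.1%. Becn1 lay off this pattern, at 36.6% with a leading coding transcript that is coding along all of its 375 bases. That transcript, Becn1-204, held only 1.20% of Becn1 counts in library 1 and 1.07% in library 2. The longer coding Becn1-205, at 2.17% and 0.752% of counts, has 1344 coding bases in 4365. The place of Becn1 thus depends on the transcript taken. How the small table counted reads is not given in the sources used here, and the cause of its low values was not tested.

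**Figure D5:**
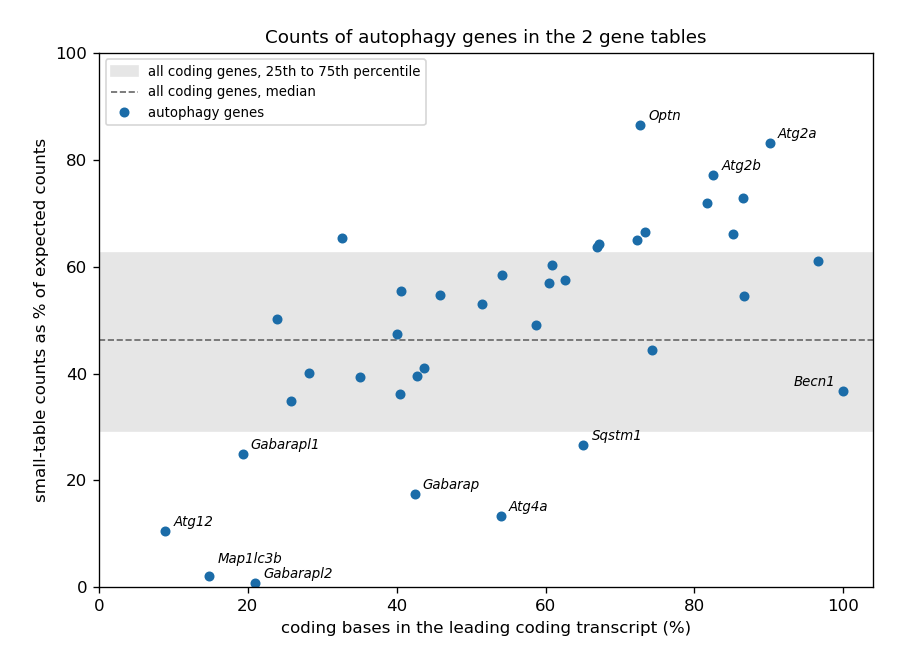
Small-table counts of each autophagy gene as a percentage of its expected counts in the large table, summed over both libraries (vertical axis), against the percentage of coding bases in its leading coding transcript (horizontal axis), for 38 genes. The band and dashed line give the quartiles and the median of 10316 protein-coding genes, and Gabarapl2 and Map1lc3b lie at the bottom with 0.849% and 2.15%.

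Some members cannot be fully separated from other genes. Exonic bases were shared with another gene for 15 members, in 13 cases with a gene on the opposite strand. Atg4d shares 1405 exonic bases with Kri1, which had 864 and 660 counts, and its own protein-coding share of TPM was the lowest of all members in library 1. Becn1 shares 3104 bases with Cntd1, which had 24.8 and 29.4 counts. Atg2b shares 383 bases with Gskip, which had 1174 and 1169 counts. Near-identical copies, at 95% identity or more over at least 100 bases of coding sequence, were found for 4 members. Atg4a has the copy Atg4a-ps, with 99.4% identity over 1188 bases, which had 70.4 counts in library 1 and 117 in library 2. Gabarapl2 has 3 processed pseudogenes, Gm5829, Gm3724 and Gm6051, of which Gm5829 had 51.8 and 11.4 counts and Gm6051 had 0 in both libraries. Atg9a and Wdr45 overlap Gm29253 and Gm45208 on the same strand, which had 37.8 and 13.7 counts in library 1 and 0 in library 2.

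The 40 genes lie on 19 chromosomes, with 7 of them on chromosome 11, so they form no single locus. In the mm10 coordinates of GENCODE M21, Atg14 spans chromosome 14 from 47540893 to 47570649 on the minus strand, and Optn spans chromosome 2 from 5020642 to 5064051 on the minus strand. Gabarapl2 spans chromosome 8 from 111940703 to 111953612 and Map1lc3b the same chromosome from 121590361 to 121598760, both on the plus strand. Becn1 and Nbr1 lie near each other on chromosome 11, Becn1 from 101285952 to 101302286 on the minus strand and Nbr1 from 101552149 to 101581951 on the plus strand, and were higher in library 1 and library 2, respectively.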

How the data were processed

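Polyadenylated RNA of 1 biosample was sequenced in 2 technical libraries. In the large gene and transcript tables the authors gave 3 units, all from transcriptome alignments with mm10 and GENCODE M21: expected counts, then TPM and FPKM as deposited, both divided by effective length, per the file headers. Counts in the small table are whole numbers from the authors' mm10 and GENCODE M4 annotation, as the deposited description states. Aligner, quantifier and strand use: not given in the sources used here.

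Rows that are not GENCODE genes, with 0.201% and 0.235% of expected counts, were left out. Expected counts were rounded, and genes with at least 10 counts over both libraries were compared with a 2-sided exact binomial test (scipy 1.17.1) against library totals, with Benjamini-Hochberg adjustment. Ratios had 0.5 counts added, and intervals are 95% exact (Clopper-Pearson) and, like the test, cover counting error only, since PCR copies are not independent molecules. Copies were searched with BLAST 2.17.0. Promoters came from RefSeq (GRCm38.p6), and Map1lc3a, Becn1, Atg16l1, Atg12, Pik3c3 and Rb1cc1 had no entry matched. Alternatives were edgeR 4.0.16 TMM factors, DESeq2 1.42.0 size factors, other thresholds, the small table, and each library alone. All 40 members are named. Of the other genes, the 3 with the highest mean TPM per list, those under a TPM of 1 in either library, and those called with at least 100 counts and 2-fold are named. Of the transcripts, those leading a gene are named where they are not protein-coding, change between libraries or hold under 50%. Any further transcript was picked with its values in view. The members, lists and tests were chosen with earlier results of these data known. One marker gene of the erythroid list is not reported here.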

Additional observations from a re-analysis of the deposited data

How the results depend on the processing

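The number of detected members was 40 at a TPM threshold of 0.1, 36 at 5, 37 at an FPKM of 1, and 38 from either library alone. The number called was 29 with TMM factors, 33 with DESeq2 size factors, 26 with no filter, 26 at a minimum of 100 counts and 20 in the small table, against 27. Other pathway genes higher in library 2 numbered 19 with DESeq2 size factors against 29. From either library alone, 33 leading transcripts were protein-coding, against 34 from both. The sign of the log2 ratio turned with TMM factors for Pik3c3 (-0.029) and Map1lc3a (-0.028). It turned with DESeq2 size factors for Rb1cc1 (-0.10), Pik3c3 (-0.14), Atg9a (-0.072), Atg7 (-0.11) and Map1lc3a (-0.14). In the small table it turned for Rb1cc1 (-0.0146), Atg101 (0.0077), Pik3c3 (-0.0107), Atg12 (0.068), Atg7 (-0.037), Map1lc3a (-0.31), Map1lc3b (0.091), Gabarap (0.077), Gabarapl2 (0.35), Sqstm1 (0.044) and Tax1bp1 (0.0245). Of these, Gabarap and Sqstm1 were called in the large table. The cause was not tested. With 5 counts added, which enter the ratio and not the test, no sign changed. On log2(TPM + 1), which had no test, the value moved for 18 members, and the sign turned for Atg9a (-0.11), Map1lc3a (-0.0146) and Map1lc3b (0.0247), none of them called. No paired analysis was possible because both libraries belong to 1 group. The 2 libraries of 1 biosample give no estimate of spread between mice, and Wipi1, Atg4c and Optn rest on the fewest counts.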
